A study of Homo sapiens with 9 samples.

Results

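The genes described here were 53 members of the Wnt pathway, namely secreted ligands, cell surface receptors, antagonists, feedback inhibitors and the intracellular components that they act on. They were chosen by symbol from the 20030 genes of the deposited count table, with earlier results of these data known, and were measured in all 9 libraries. The cells were MHCC97L, a human hepatocellular carcinoma (HCC) cell line. They were grown without drug treatment according to the labels (MHCC97L), or were selected in rising concentrations of saracatinib, a Src kinase inhibitor, until stably resistant to 4 μmol/L (MHCC97L-Src), or made stably resistant to 2 μmol/L of the platinum drug oxaliplatin (MHCC97L-Oxa). Each line was sequenced in 3 libraries of poly(A)-selected RNA. The study sequenced the lines to look for a mechanism behind the antagonism of the drugs in HCC, and the comparisons asked which Wnt genes differed between each resistant line and its parental line, and between the resistant lines. Each resistant line was 1 derived line, so line and drug cannot be told apart, and p-values measured the spread between these libraries. In bulk RNA, fewer cells of a type and less RNA per cell cannot be told apart.

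Wnt proteins are lipid-modified secreted ligands that bind Frizzled receptors. In the canonical branch, a Frizzled and its co-receptor LRP5 or LRP6 stop a destruction complex, built on AXIN and APC, from degrading β-catenin, which then works with TCF/LEF factors in the nucleus. In the non-canonical branches, ligands such as WNT5A act through Frizzled, ROR and RYK receptors on cell polarity and calcium without β-catenin. In the liver the canonical branch is known for patterning of hepatocyte metabolism, and its activating mutations are frequent in HCC.

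The 250 bases before the RefSeq transcription start (GRCh38.p14) are shown for DKK1, NKD2 and WNT6, which were chosen after values were seen. NOTUM, which passed the test only between the resistant lines, had no window. DKK1 and NKD2 passed the test after adjustment in at least 1 comparison with MHCC97L. WNT6 did not pass as counted, and was the most abundant ligand of the cells by FPKM. The windows lie at chr10:52314031-52314280 for DKK1, chr5:1008552-1008801 for NKD2 and chr2:218859555-218859804 for WNT6, each on the + strand and with 0 bases inside an exon annotated by GENCODE release 29. Capitals mark matches, on either strand, to the core sequence that TCF/LEF factors bind, CTTTGNN, where each N was an A or a T.
DKK1: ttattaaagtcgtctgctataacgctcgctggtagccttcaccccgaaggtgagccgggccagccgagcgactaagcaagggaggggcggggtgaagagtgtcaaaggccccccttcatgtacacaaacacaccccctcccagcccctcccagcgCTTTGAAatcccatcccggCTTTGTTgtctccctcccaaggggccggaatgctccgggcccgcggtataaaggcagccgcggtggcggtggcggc
NKD2: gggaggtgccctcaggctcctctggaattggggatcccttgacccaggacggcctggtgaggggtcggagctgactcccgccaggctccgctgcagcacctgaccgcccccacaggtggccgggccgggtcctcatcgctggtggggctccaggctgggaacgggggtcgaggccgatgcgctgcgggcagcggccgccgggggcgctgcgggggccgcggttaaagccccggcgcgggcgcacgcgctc
WNT6: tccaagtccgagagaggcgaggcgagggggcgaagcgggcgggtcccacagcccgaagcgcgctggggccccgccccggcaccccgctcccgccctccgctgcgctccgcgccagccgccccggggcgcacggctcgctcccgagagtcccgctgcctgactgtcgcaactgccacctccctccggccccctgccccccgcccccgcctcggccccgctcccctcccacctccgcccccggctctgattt
The DKK1 window held 2 matches, CTTTGAA with its first base 95 bases before the start and CTTTGTT with its first base 76 bases before it. The NKD2 and WNT6 windows held 0 matches. Of all 27305 genes with a RefSeq promoter window, 14.31% held at least 1 match in any of their windows. Of the 38 members with a window, 3 held at least 1 (7.895%), namely DKK1, TCF7 and TCF7L2. A match describes letters in the window and does not show binding. The windows were rich in G and C, which made up 62.8% of DKK1, 75.6% of NKD2 and 79.2% of WNT6.

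The libraries held 16970486 to 18209213 counts on genes, and 3 counts, taken as the smallest detectable amount, came to 0.165 to 0.177 CPM (counts scaled to library size), which covers counting error only. The labels give liver hepatoma cells, yet the hepatocyte products ALB, AFP, TTR and APOB had 0 counts in all 9 libraries, while the epithelial keratins KRT8 and KRT18 had 28881 to 69315 and 22160 to 48660 counts. Of the 11 markers of other cell types, 5 had enough counts to be tested in each comparison. The leukocyte gene PTPRC, the T-cell gene CD3E and the red-cell gene HBB had 0 counts throughout. Among these markers PDGFRB and CD68 moved with the lines, and both were lower in MHCC97L-Src than in MHCC97L-Oxa, with log2 fold changes of -1.32 ± 0.19 and -0.75 ± 0.13 (SE, adjusted p = 0.00395 and 0.0116 by edgeR). The 11 hepatocyte and hepatoma markers also included APOA1, SERPINA1, HNF4A, EPCAM and GPC3. Too few counts to test were found for 9 of the 11 between MHCC97L-Src and MHCC97L, where KRT8 and KRT18 were tested, and for 8 in the other comparisons. Between the resistant lines, 2 of the 3 tested were higher in MHCC97L-Src at an adjusted p under 0.05 by edgeR, against 2.12% of all genes. Against MHCC97L, 1 of 3 was higher in MHCC97L-Oxa (0.771% of all genes) and 0 of 2 in MHCC97L-Src (1.43%). The part of the moving markers of both lists in the results below was not tested. MHCC97L replicate 1 stood apart from the other libraries. Across 12126 genes its deviation from the mean of the 9 libraries followed the GC content of the transcript, with a Spearman's rho of -0.781, against -0.255 to 0.699 in the other 8 libraries, where genes are not independent replicates. Trends of the opposite sign were strongest in MHCC97L-Src replicates 2 and 1, at 0.699 and 0.542. The trend of MHCC97L replicate 1 was also seen among the Wnt genes tested in at least 1 comparison. Compared with the mean of MHCC97L replicates 2 and 3, the 10 genes under 45% GC were higher in replicate 1 by a median of 1.38 on the log2 scale, with 9 of the 10 higher. The 10 genes at 60% GC or more were lower, with a median of -0.70 and 2 of the 10 higher, and the 19 genes between these limits had a median of -0.25. Results against MHCC97L are therefore also given without replicate 1 and after a correction for GC content and transcript length.

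**Figure D1:**
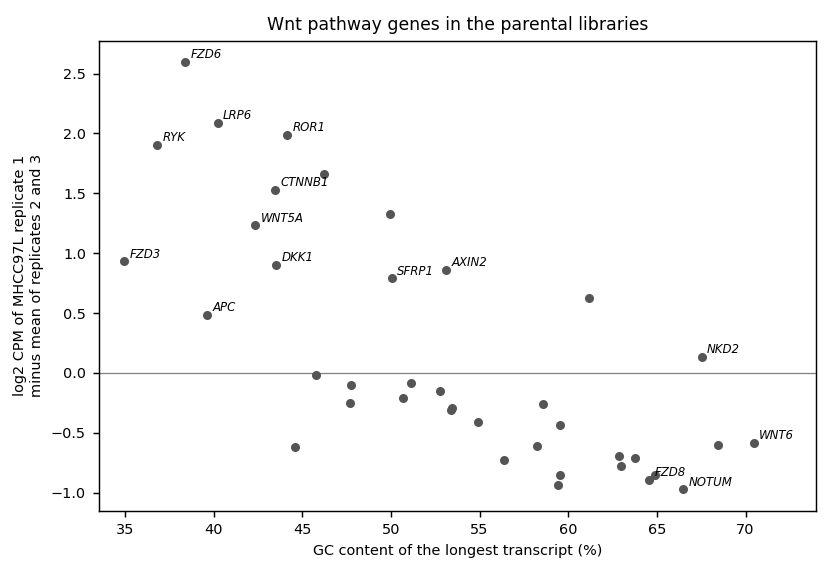
Log2 CPM of MHCC97L replicate 1 minus the mean of MHCC97L replicates 2 and 3 (vertical axis) against the GC content of the longest transcript in percent (horizontal axis). Each point is a Wnt gene tested in at least 1 comparison. Of these, 9 of the 10 genes under 45% GC lie above 0 and 8 of the 10 genes at 60% or more lie below it.

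Of the 53 genes, 36 had enough counts to be tested in all 3 comparisons, 3 in 1 or 2 of them and 14 in none. WNT7A, WNT8B, WNT16, FZD10, SFRP4 and WIF1 had 0 counts in every library, which allows up to the amount of 3 counts. WNT1, WNT2, WNT3A, SFRP2 and LEF1 did not exceed 3 counts in any library. WNT4, WNT10A and NKD1 had more than 3 counts in at least 1 library and at most 9, which was too few to test. WNT5B was tested only between the resistant lines, FZD9 only between MHCC97L-Src and MHCC97L, and TCF7L1 was not tested between MHCC97L-Oxa and MHCC97L. Among the genes at or below 3 counts were the classical canonical ligands WNT1 and WNT3A and the nuclear factor LEF1.

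**Figure D2:**
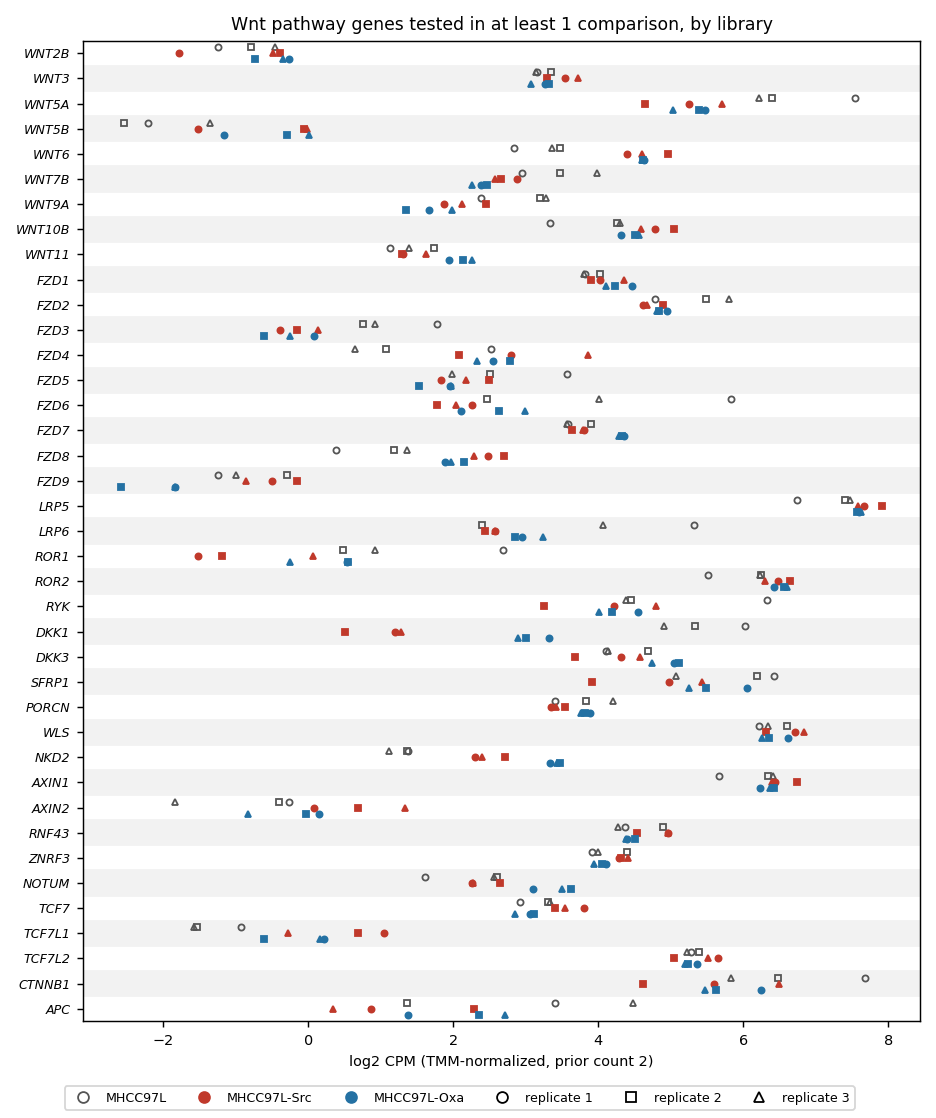
Log2 CPM (horizontal axis, TMM-normalized, prior count of 2) of each Wnt gene tested in at least 1 comparison, by library, with the symbol giving the replicate and the colour giving the line. DKK1 separates all 3 lines, while in FZD6, LRP6 and CTNNB1 the point farthest to the right is MHCC97L replicate 1.

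DKK1, a secreted antagonist that blocks LRP5 and LRP6, fell in MHCC97L-Src and was the only Wnt gene to pass the adjusted threshold there. In edgeR's quasi-likelihood test with Benjamini-Hochberg adjustment over all genes, 0 of the 38 Wnt genes tested were higher and 1 was lower at an adjusted p under 0.05, against 1.43% and 0.698% of all genes tested. At the weaker criterion that the study printed on its heat maps, a log2 fold change beyond 1 in size at an unadjusted p under 0.05, 5 were higher and 8 were lower, against 5.74% and 18.9% of all genes tested. Those 8 made up 21.1% of the Wnt genes tested, close to the share of all genes, and the 5 made up 13.2%. After the correction for GC content and length, 3 were higher and 5 were lower at an adjusted p under 0.05 (21.1%), against 10.7% of all genes in either direction. The median log2 fold change was 0.07 over the Wnt genes and -0.16 over all genes.

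In MHCC97L-Oxa, NKD2, a cytoplasmic inhibitor of Wnt signaling that binds Dishevelled, rose and DKK1 fell. In the same test, 1 of the 36 Wnt genes tested was higher and 1 was lower at an adjusted p under 0.05, against 0.771% and 0.182% of all genes. At the weaker criterion 4 were higher (11.1%) and 6 were lower (16.7%), against 4.63% and 11.5% of all genes. After the correction 4 were higher and 4 were lower at an adjusted p under 0.05 (22.2%), against 13.0% of all genes in either direction. The median log2 fold change was -0.03 over the Wnt genes and -0.19 over all genes. The 3 parental libraries served in both of these comparisons, and the values of each are set side by side for that reason.

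The genes that met the weaker criterion were split by GC content. In MHCC97L-Src the 5 higher genes had a median GC content of 64.6% (53.1% to 70.5%) and the 8 lower genes a median of 41.3% (34.9% to 50.0%), while all genes meeting the criterion there had medians of 58.0% (higher) and 40.6% (lower). In MHCC97L-Oxa the 4 higher genes had a median of 67.0% (64.6% to 70.5%) and the 6 lower genes a median of 42.9% (34.9% to 63.0%), against medians of 57.4% and 41.2% over all genes meeting it. MHCC97L replicate 1 moved with GC content too, so values after correction are given with the genes that met either criterion.

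**Figure D3:**
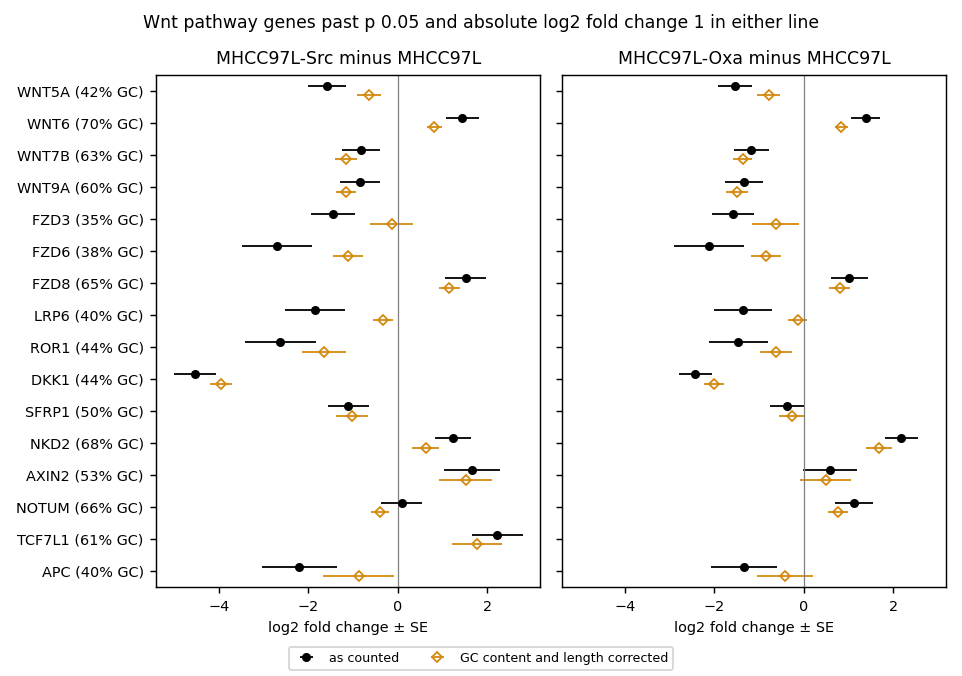
Log2 fold change ± SE against MHCC97L (horizontal axis) of the Wnt genes that met a log2 fold change beyond 1 in size at an unadjusted p under 0.05 in either resistant line, and of the same genes in the other line, as counted (filled) and after correction for GC content and transcript length (open). After correction FZD3 in MHCC97L-Src moved from -1.45 to -0.14, whereas DKK1 moved from -4.53 to -3.95. TCF7L1 was not tested in MHCC97L-Oxa.

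Among the secreted antagonists, DKK1 had 1259, 688 and 536 parental counts, against 37, 20 and 42 in MHCC97L-Src with 179, 146 and 131 for MHCC97L-Oxa. The lines did not overlap, with MHCC97L highest and MHCC97L-Src lowest in every library. The mean level was 44.9 ± 18.01 CPM in MHCC97L, 1.93 ± 0.547 CPM in MHCC97L-Src and 8.38 ± 1.36 CPM in MHCC97L-Oxa (SD, n = 3). DKK1 was 23.1-fold lower in MHCC97L-Src, a log2 fold change of -4.53 ± 0.47 (SE, adjusted p = 0.00598 by edgeR). Without MHCC97L replicate 1 the log2 fold change was -4.13 (adjusted p = 0.000472 by edgeR), and after the GC correction it was -3.95 (adjusted p = 0.000674 by edgeR). In MHCC97L-Oxa DKK1 was 5.36-fold lower, with a log2 fold change of -2.42 ± 0.37 (SE, adjusted p = 0.0323 by edgeR). That value was -1.97 without MHCC97L replicate 1 (adjusted p = 0.00308 by edgeR) and -2.01 after the GC correction (adjusted p = 0.00423 by edgeR). The adjusted p in MHCC97L-Oxa ranged up to 0.231 when another library was left out, and 2 of the 6 libraries could be left out with the adjusted p staying under 0.05.

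The other detected antagonists were SFRP1, which binds Wnt ligands outside the cell, and DKK3, a divergent Dickkopf protein. SFRP1 had 1665, 1254 and 604 parental counts, against 532, 230 and 785 in MHCC97L-Src with 1197, 828 and 679 for MHCC97L-Oxa, and the lines overlapped. Its log2 fold change in MHCC97L-Src was -1.11 ± 0.47 (SE, adjusted p = 0.159 by edgeR), -0.80 without MHCC97L replicate 1 and -1.02 after the GC correction. DKK3 had 313 to 441 counts in MHCC97L, with 195 to 432 for MHCC97L-Src and 475 to 638 for MHCC97L-Oxa, and did not meet either criterion against MHCC97L.

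**Figure D4:**
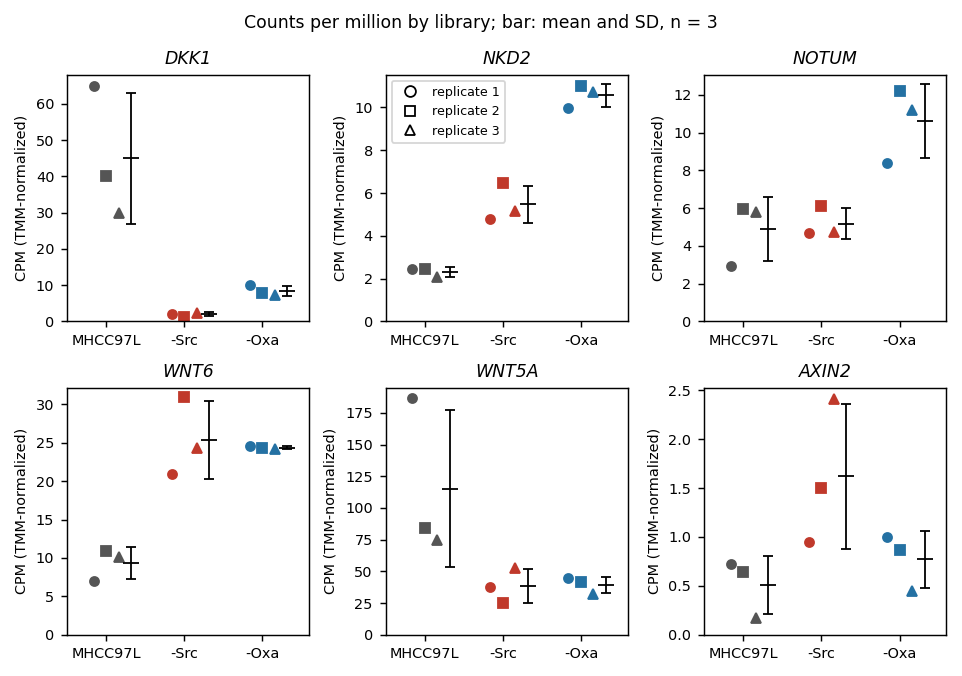
CPM (vertical axis, TMM-normalized, starting at 0) of 6 Wnt genes by library in MHCC97L, MHCC97L-Src and MHCC97L-Oxa, with the mean and SD of n = 3 libraries beside the points. DKK1 and NKD2 separate all 3 lines, NOTUM and WNT6 separate MHCC97L-Oxa from MHCC97L, and AXIN2 in MHCC97L-Oxa overlaps MHCC97L.

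The feedback inhibitors are genes that Wnt signaling induces and that then dampen it. NKD2 had 48, 42 and 37 parental counts, against 81, 99 and 94 in MHCC97L-Src with 180, 203 and 192 for MHCC97L-Oxa. The lines did not overlap, and MHCC97L-Oxa was highest in every library. NKD2 rose 4.53-fold in MHCC97L-Oxa, a log2 fold change of 2.18 ± 0.36 (SE, adjusted p = 0.0396 by edgeR), from 2.33 ± 0.232 to 10.6 ± 0.527 CPM (SD, n = 3). The value was 2.32 without MHCC97L replicate 1 (adjusted p = 0.00335 by edgeR) and 1.68 after the GC correction (adjusted p = 0.0156 by edgeR). With the replicate numbers as a block the adjusted p was 0.102, and 2 of the 6 libraries could be left out with it staying under 0.05. In MHCC97L-Src NKD2 had a log2 fold change of 1.23 ± 0.41 (SE, adjusted p = 0.116 by edgeR), and 0.62 after the GC correction.

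AXIN2, a scaffold of the destruction complex and a widely used readout of canonical signaling, was scarce. It had 14, 11 and 3 parental counts, against 16, 23 and 44 in MHCC97L-Src with 18, 16 and 8 for MHCC97L-Oxa. All MHCC97L-Src libraries were above all MHCC97L libraries in CPM, while MHCC97L-Oxa overlapped MHCC97L. Its log2 fold change was 1.65 ± 0.63 in MHCC97L-Src (SE, adjusted p = 0.134 by edgeR) and 0.59 ± 0.60 in MHCC97L-Oxa (SE, adjusted p = 0.543 by edgeR). Leaving out each library in turn gave AXIN2 log2 fold changes of 1.24 to 2.03 in MHCC97L-Src, with adjusted p of 0.0683 to 0.293 by edgeR. With the GC correction the value there was 1.51 (adjusted p = 0.148 by edgeR).

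NOTUM, a secreted enzyme that removes the lipid from Wnt ligands, had 57, 102 and 104 parental counts, against 79, 94 and 86 in MHCC97L-Src with 152, 226 and 201 for MHCC97L-Oxa. MHCC97L-Src overlapped MHCC97L, and all MHCC97L-Oxa libraries were above both. NOTUM had a log2 fold change of 0.08 ± 0.45 for MHCC97L-Src (SE, adjusted p = 0.914 by edgeR) and 1.12 ± 0.42 in MHCC97L-Oxa (SE, adjusted p = 0.203 by edgeR). Corrected for GC content, the values were -0.40 and 0.76 (adjusted p = 0.251 and 0.0672 by edgeR). RNF43 and ZNRF3, ubiquitin ligases that remove Frizzled receptors from the cell surface, had 346 to 568 and 274 to 384 counts in the 9 libraries. Their log2 fold changes were 0.30 ± 0.33 and 0.22 ± 0.33 for MHCC97L-Src and -0.11 ± 0.30 and -0.08 ± 0.30 in MHCC97L-Oxa, and neither met a criterion. NKD1 had 1 to 8 counts per library. Of the 5 tested feedback inhibitors, 1 rose in MHCC97L-Oxa (NKD2) and 0 passed the adjusted threshold in MHCC97L-Src by edgeR, where 2 had an unadjusted p under 0.05 (NKD2 and AXIN2). Over all genes, 2.13% in MHCC97L-Src and 0.953% in MHCC97L-Oxa passed the adjusted threshold in either direction, and 29.5% and 22.4% had an unadjusted p under 0.05.

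Of the 13 canonical ligands, 6 were tested in each comparison and 0 passed the adjusted threshold against MHCC97L by edgeR, with 1 at an unadjusted p under 0.05 in MHCC97L-Src and 3 in MHCC97L-Oxa, where 29.5% and 22.4% of all genes had one. WNT6 had 136, 188 and 183 parental counts, against 355, 475 and 443 in MHCC97L-Src with 444, 450 and 434 for MHCC97L-Oxa. Every library of the resistant lines was above every MHCC97L library. WNT6 had a log2 fold change of 1.44 ± 0.37 for MHCC97L-Src (SE, adjusted p = 0.0857 by edgeR) and 1.38 ± 0.32 in MHCC97L-Oxa (SE, adjusted p = 0.0974 by edgeR). Without MHCC97L replicate 1 the values were 1.30 (adjusted p = 0.032 by edgeR) and 1.30 (adjusted p = 0.00356 by edgeR). After the GC correction they were 0.82 (adjusted p = 0.0258 by edgeR) and 0.84 (adjusted p = 0.0145 by edgeR), so WNT6 was past the threshold in both lines under either change and the corrected rise was smaller. In each line WNT6 passed it in 5 of 13 alternatives and in 2 of the 6 fits that left out a library. Its adjusted p in those 6 ranged up to 0.26 in MHCC97L-Src and 0.472 in MHCC97L-Oxa by edgeR. Without MHCC97L replicate 1, calls over all genes also rose, from 256 to 672 and from 115 to 2251.

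WNT7B had 148, 188 and 282 parental counts, against 123, 95 and 107 in MHCC97L-Src with 92, 100 and 84 for MHCC97L-Oxa, and was lower in every library of the resistant lines. Its log2 fold change was -0.82 ± 0.42 in MHCC97L-Src (SE, adjusted p = 0.221 by edgeR) and -1.17 ± 0.40 in MHCC97L-Oxa (SE, adjusted p = 0.194 by edgeR). The WNT7B values after the GC correction were -1.16 and -1.37, past the threshold in both lines (adjusted p = 0.0277 and 0.0109 by edgeR). WNT9A had 99, 155 and 172 parental counts, against 60, 82 and 77 in MHCC97L-Src with 55, 45 and 69 for MHCC97L-Oxa. All MHCC97L-Oxa libraries of WNT9A were below all MHCC97L libraries, while MHCC97L-Src overlapped MHCC97L in CPM. The WNT9A log2 fold change was -0.85 ± 0.44 in MHCC97L-Src (SE, adjusted p = 0.225 by edgeR) and -1.34 ± 0.42 in MHCC97L-Oxa (SE, adjusted p = 0.181 by edgeR). After the GC correction it was -1.15 and -1.49, again past the threshold in both (adjusted p = 0.0244 and 0.0135 by edgeR). WNT10B, WNT3 and WNT2B had 194 to 506, 149 to 238 and 3 to 13 counts in the 9 libraries and met neither criterion in any comparison.

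Of the 4 non-canonical ligands, WNT5A, WNT11 and, between the resistant lines, WNT5B were tested. WNT5A had 3622, 1447 and 1339 parental counts, against 641, 382 and 953 in MHCC97L-Src with 802, 771 and 581 for MHCC97L-Oxa. Every library of the resistant lines was below every MHCC97L library, and MHCC97L replicate 1 was the highest. WNT5A had a log2 fold change of -1.59 ± 0.42 for MHCC97L-Src (SE, adjusted p = 0.0905 by edgeR) and -1.54 ± 0.37 in MHCC97L-Oxa (SE, adjusted p = 0.109 by edgeR). Without MHCC97L replicate 1 the values were -1.01 (adjusted p = 0.0822 by edgeR) and -0.92 (adjusted p = 0.0095 by edgeR), and after the GC correction they were -0.64 and -0.79 (adjusted p = 0.175 and 0.102 by edgeR). WNT5B had 2, 1 and 5 parental counts, against 4, 13 and 16 in MHCC97L-Src with 6, 13 and 16 for MHCC97L-Oxa, and WNT11 had 36 to 84 counts in the 9 libraries.

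Set side by side in FPKM, which takes transcript length into account, WNT6 was the most abundant Wnt ligand of the 3 lines on average. It made up 38.4% ± 5.18 of the summed FPKM of the 17 ligands in MHCC97L, against 66.3% ± 3.83 for MHCC97L-Src and 68.2% ± 1.20 for MHCC97L-Oxa (SD, n = 3). WNT5A made up 22.0% ± 12.7, 4.86% ± 1.98 and 5.31% ± 1.06, and WNT10B 11.1% ± 3.31, 12.8% ± 1.60 and 10.9% ± 0.837. In CPM, which leaves length out, WNT5A was above WNT6 on average, at 115 ± 62.1 against 9.39 ± 2.09 in MHCC97L (SD, n = 3). The means were 38.4 against 25.4 in MHCC97L-Src and 39.5 against 24.4 in MHCC97L-Oxa. The longest transcripts had 6176 (WNT5A) and 1703 (WNT6) bases. The lengths behind the deposited FPKM were not checked, so the order in MHCC97L rests on that FPKM. The FPKM of WNT6 divided by that of WNT5A was 0.893, 2.84 and 2.80 in the parental libraries, against 12.6, 25.3 and 9.60 for MHCC97L-Src with 11.0, 11.9 and 16.8 for MHCC97L-Oxa. Each library of the resistant lines was above each MHCC97L library in this ratio, which was looked at after the values of both genes were known. The mean log2 ratio differed from MHCC97L by 2.92 in MHCC97L-Src and by 2.76 in MHCC97L-Oxa, given as a description with no test. WNT6 had a GC content of 70.5% and WNT5A of 42.3%. The ratio was lowest in MHCC97L replicate 1, the library with the strongest GC trend (Spearman's rho of -0.781). It was highest in MHCC97L-Src replicate 2, the library with the strongest trend of the opposite sign (0.699). The part of GC content in the ratio was not tested.

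Of the 10 Frizzled receptors, which serve both branches, MHCC97L-Src had 9 tested against 8 for MHCC97L-Oxa. None passed the adjusted threshold against MHCC97L by edgeR, and 3 in each line had an unadjusted p under 0.05 with a log2 fold change beyond 1, as did 24.6% and 16.2% of all genes. FZD8 had 23, 37 and 44 parental counts, against 92, 98 and 87 in MHCC97L-Src with 65, 80 and 68 for MHCC97L-Oxa. The lines did not overlap, with MHCC97L lowest and MHCC97L-Src highest. FZD8 had a log2 fold change of 1.52 ± 0.46 for MHCC97L-Src (SE, adjusted p = 0.106 by edgeR) and 1.02 ± 0.42 in MHCC97L-Oxa (SE, adjusted p = 0.215 by edgeR). After the GC correction the values were 1.15 (adjusted p = 0.0279 by edgeR) and 0.80 (adjusted p = 0.0745 by edgeR).

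FZD6 had 1105, 93 and 287 parental counts, against 79, 51 and 73 in MHCC97L-Src with 76, 112 and 140 for MHCC97L-Oxa. MHCC97L replicate 1 exceeded every other library several times over, while MHCC97L replicate 2 lay within the range of MHCC97L-Oxa. The FZD6 log2 fold change was -2.71 ± 0.78 in MHCC97L-Src (SE, adjusted p = 0.1 by edgeR) and -2.11 ± 0.78 in MHCC97L-Oxa (SE, adjusted p = 0.201 by edgeR). Without MHCC97L replicate 1 it was -1.37 and -0.73, and after the GC correction -1.11 and -0.84. FZD3 had 64, 27 and 32 parental counts, against 11, 12 and 18 in MHCC97L-Src with 17, 10 and 13 for MHCC97L-Oxa, and every library of the resistant lines was lower. The FZD3 log2 fold change was -1.45 ± 0.49 in MHCC97L-Src (SE, adjusted p = 0.117 by edgeR) and -1.58 ± 0.47 in MHCC97L-Oxa (SE, adjusted p = 0.167 by edgeR), and -0.14 and -0.63 after the GC correction.

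FZD2, FZD4 and FZD7 met neither criterion as counted and passed the adjusted threshold in at least 1 line after the GC correction. FZD2 had 532, 764 and 996 parental counts, against 411, 454 and 462 in MHCC97L-Src with 554, 527 and 502 for MHCC97L-Oxa, and both lines overlapped MHCC97L in CPM. Its log2 fold changes were -0.68 ± 0.33 and -0.55 ± 0.31 as counted (SE, adjusted p = 0.2 and 0.287 by edgeR), and -1.18 and -0.91 after the correction (adjusted p = 0.0061 and 0.01 by edgeR). FZD4 had 109, 34 and 26 parental counts, against 116, 63 and 262 in MHCC97L-Src with 104, 125 and 88 for MHCC97L-Oxa, and both lines overlapped MHCC97L. The FZD4 log2 fold changes were 1.48 ± 0.68 and 0.94 ± 0.56 as counted (SE, adjusted p = 0.181 and 0.306 by edgeR), and 2.13 and 1.53 after the correction (adjusted p = 0.0264 and 0.0214 by edgeR). FZD7 had 231, 254 and 212 parental counts, against 234, 190 and 251 in MHCC97L-Src with 368, 367 and 348 for MHCC97L-Oxa, where every library was above every MHCC97L library in CPM. In MHCC97L-Oxa FZD7 had 0.63 ± 0.30 as counted (SE, adjusted p = 0.239 by edgeR) and 0.55 after the correction (adjusted p = 0.0465 by edgeR), and in MHCC97L-Src 0.05 ± 0.35 (SE) and -0.07.

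Per length, FZD2 had the highest mean FPKM of the Frizzled receptors in each line, at 39.5% ± 14.8 of their summed FPKM in MHCC97L, against 31.0% ± 3.70 for MHCC97L-Src and 31.6% ± 0.945 for MHCC97L-Oxa (SD, n = 3). FZD1 held 15.2% ± 3.29, 23.0% ± 2.78 and 23.2% ± 2.23, and FZD7 held 14.6% ± 3.94, 19.7% ± 1.68 and 25.8% ± 0.416. FZD8 held 3.12% ± 1.21, 11.2% ± 2.18 and 7.05% ± 1.01. The FZD6 share in MHCC97L, 21.6% ± 19.6, spread from 5.74% to 43.6%, so its place in the order was not determined there. FZD3, FZD4, FZD5 and FZD9 each held between 0.232% and 5.58% on average, and FZD10 was listed at 0.

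Among the co-receptors of the canonical branch, LRP5 had 2075 to 3708 counts in the 9 libraries and met neither criterion. LRP6 had 773, 88 and 299 parental counts, against 99, 81 and 107 in MHCC97L-Src with 137, 131 and 167 for MHCC97L-Oxa, and in CPM MHCC97L replicate 2 was below all libraries of the resistant lines while the other parental libraries were above them. The LRP6 log2 fold change in MHCC97L-Src was -1.86 ± 0.67 (SE, adjusted p = 0.126 by edgeR), -0.89 without MHCC97L replicate 1 and -0.33 after the GC correction. In MHCC97L-Oxa it was -1.36 ± 0.66 (SE, adjusted p = 0.246 by edgeR), with -0.35 and -0.14 under the same changes. Among the receptor kinases of the non-canonical branch, ROR1 had 123, 22 and 32 parental counts, against 4, 5 and 17 in MHCC97L-Src with 24, 25 and 13 for MHCC97L-Oxa. The ROR1 log2 fold change in MHCC97L-Src was -2.63 ± 0.79 (SE, adjusted p = 0.106 by edgeR), -1.54 without MHCC97L replicate 1 and -1.65 after the GC correction. ROR2, the more abundant of the ROR receptors by FPKM (7.32 ± 1.53 in MHCC97L against 0.245 ± 0.241 for ROR1, SD, n = 3), had 885 to 1747 counts and met neither criterion. RYK had 1551, 373 and 373 counts in MHCC97L and 145 to 504 in the resistant lines, and met neither criterion. Its log2 fold changes turned from -1.14 and -1.09 as counted to 0.22 and 0.01 after the GC correction.

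The ligand processing genes PORCN, which attaches the lipid to Wnt proteins, and WLS, which carries them to the cell surface, had 170 to 330 and 1218 to 2077 counts and met neither criterion in any comparison. PORCN had, after the GC correction, a log2 fold change of -0.84 (adjusted p = 0.0476 by edgeR) against MHCC97L in MHCC97L-Src, from -0.42 as counted. WLS differed between the resistant lines by 0.27 after the correction (adjusted p = 0.0464 by edgeR), from 0.22 as counted. CTNNB1, which encodes β-catenin, had 3985, 1523 and 1019 parental counts, against 814, 373 and 1640 in MHCC97L-Src with 1363, 908 and 794 for MHCC97L-Oxa. The lines overlapped, and the highest value was again MHCC97L replicate 1. The CTNNB1 log2 fold change was -1.11 ± 0.57 in MHCC97L-Src (SE, adjusted p = 0.216 by edgeR) and -1.05 ± 0.46 in MHCC97L-Oxa (SE, adjusted p = 0.225 by edgeR). Without MHCC97L replicate 1 it was -0.38 and -0.28, and after the GC correction -0.29 and -0.33. APC had 203, 42 and 398 parental counts, against 29, 73 and 21 in MHCC97L-Src with 45, 92 and 115 for MHCC97L-Oxa, and its log2 fold change in MHCC97L-Src was -2.20 ± 0.84 (SE, adjusted p = 0.135 by edgeR) as counted and -0.88 after the GC correction. AXIN1, the constitutive scaffold of the destruction complex, had 986 to 1641 counts and met neither criterion.

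Among the TCF/LEF factors, TCF7L1, mainly a repressor of Wnt target genes, had 8, 4 and 4 parental counts, against 33, 23 and 13 in MHCC97L-Src with 19, 10 and 18 for MHCC97L-Oxa. Each library of the resistant lines was above each MHCC97L library in CPM. The TCF7L1 log2 fold change in MHCC97L-Src was 2.22 ± 0.57 (SE, adjusted p = 0.0853 by edgeR), and 1.76 after the GC correction (adjusted p = 0.0977 by edgeR). TCF7L2 was the most abundant of the family, at 4.52 ± 0.344 FPKM in MHCC97L, with 4.90 ± 1.24 for MHCC97L-Src and 4.57 ± 0.274 for MHCC97L-Oxa, against 0.34 to 0.471 FPKM on average for TCF7 (SD, n = 3). Their log2 fold changes were 0.13 ± 0.28 (TCF7L2) and 0.40 ± 0.38 (TCF7) for MHCC97L-Src, against -0.03 ± 0.22 and -0.18 ± 0.34 for MHCC97L-Oxa (SE), and neither met a criterion. The direction of TCF7L2 in MHCC97L-Oxa turned positive under DESeq2's size factors (0.04).

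Compared directly, MHCC97L-Src had less DKK1, NKD2 and NOTUM than MHCC97L-Oxa, all 3 of them inhibitors of Wnt signaling. The inhibitors did not all move that way. Of the 5 tested feedback inhibitors, 3 had positive and 2 had negative log2 fold changes, with a median of 0.30. The 3 tested secreted antagonists were all negative. The comparison of the resistant lines did not use the MHCC97L libraries. By edgeR's quasi-likelihood test with Benjamini-Hochberg adjustment, 0 of the 38 Wnt genes tested were higher and 3 were lower in MHCC97L-Src at an adjusted p under 0.05, against 2.12% and 2.52% of all genes. At the weaker criterion, 1 was higher (AXIN2) and 2 were lower (DKK1 and NOTUM), against 1.49% and 2.52% of all genes. With the GC correction 1 was higher (WLS) and 4 were lower, against 9.7% of all genes in either direction, and the fourth lower gene was FZD7 at -0.62 (adjusted p = 0.00981 by edgeR), from -0.58 ± 0.16 as counted (SE).

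DKK1 was 4.30-fold lower in MHCC97L-Src than in MHCC97L-Oxa, a log2 fold change of -2.10 ± 0.28 (SE, adjusted p = 0.0025 by edgeR), and its adjusted p stayed under 0.05 in 6 of 6 fits that left out a library. NKD2 was 1.94-fold lower, a log2 fold change of -0.95 ± 0.21 (SE, adjusted p = 0.0284 by edgeR). Its adjusted p was under 0.05 in 2 of 6 such fits and was 0.0656 with the replicate numbers as a block. NOTUM was 2.06-fold lower, a log2 fold change of -1.04 ± 0.23 (SE, adjusted p = 0.031 by edgeR), and its adjusted p was under 0.05 in 3 of 6 such fits. After the GC correction the log2 fold changes were -1.94, -1.08 and -1.17, with adjusted p of 0.00117, 0.00326 and 0.00579 by edgeR. When all 9 libraries shared a single estimate of the spread, DKK1 kept an adjusted p under 0.05 (0.0374 by edgeR), while NKD2 and NOTUM had 0.338 and 0.452.

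The ligands WNT6 and WNT5A overlapped between the resistant lines. The WNT6 log2 fold change was 0.06 ± 0.17 and that of WNT5A -0.04 ± 0.25 (SE), and the mean log2 FPKM ratio of WNT6 to WNT5A differed by 0.158. FZD8 had a log2 fold change of 0.49 ± 0.23 (SE, adjusted p = 0.272 by edgeR), CTNNB1 of -0.05 ± 0.39 (SE, adjusted p = 0.962 by edgeR) and AXIN2 of 1.07 ± 0.46 (SE, adjusted p = 0.234 by edgeR). RNF43 and ZNRF3 were at 0.41 ± 0.17 and 0.30 ± 0.16, and TCF7, TCF7L1 and TCF7L2 at 0.58 ± 0.20, 0.66 ± 0.45 and 0.16 ± 0.17 (SE), with adjusted p of 0.133 or more by edgeR. The remaining tested Wnt genes lay between -1.15 (ROR1) and 0.55 (FZD4), with adjusted p of 0.0732 or more by edgeR.

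**Figure D5:**
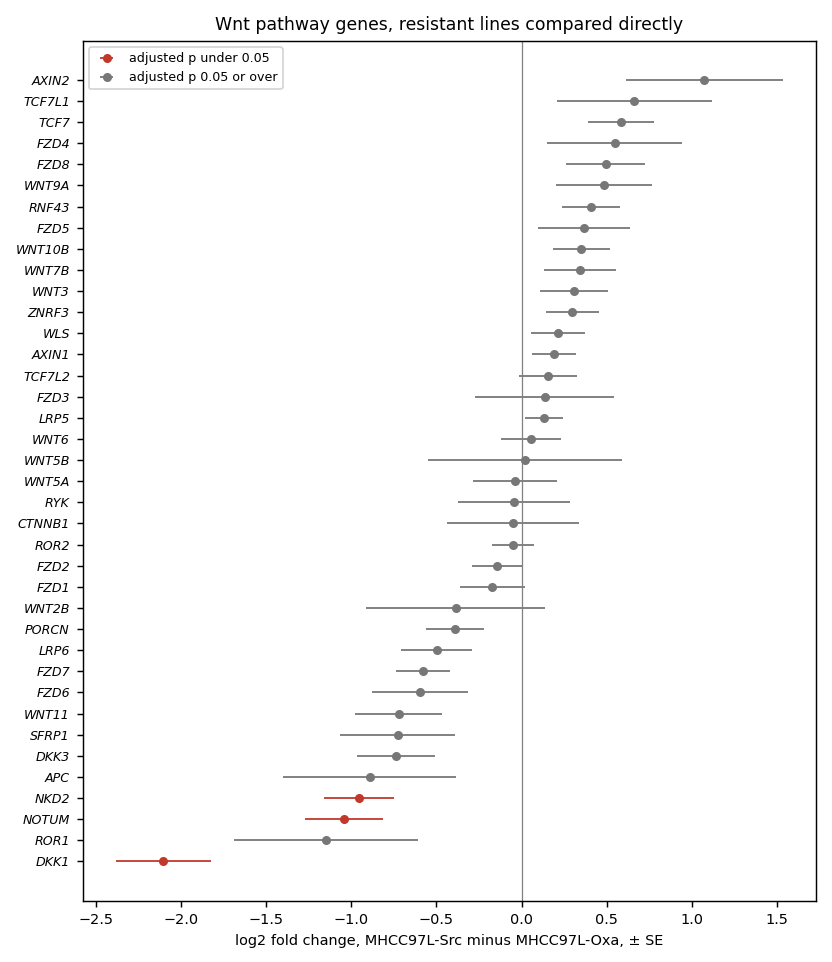
Log2 fold change ± SE of MHCC97L-Src minus MHCC97L-Oxa (horizontal axis) for the 38 Wnt genes tested, ordered by value. DKK1, NOTUM and NKD2 (coloured) had an adjusted p under 0.05 and lie at -2.10, -1.04 and -0.95.

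The rest of the pathway was read from fixed lists of 102 further genes, 67 of them tested in MHCC97L-Src with 66 for MHCC97L-Oxa. Of the β-catenin target genes, which include MYC and CCND1, 0 of 12 tested in MHCC97L-Src and 0 of 11 tested in MHCC97L-Oxa passed the adjusted threshold by edgeR, with 2 and 3 at an unadjusted p under 0.05 (16.7% and 27.3%, against 29.5% and 22.4% of all genes). Their median log2 fold changes were 0.28 and 0.42, and 0.18 and 0.22 after the GC correction. MYC, the best known of these targets, had log2 fold changes of 0.71 ± 0.23 in MHCC97L-Src and 0.45 ± 0.20 in MHCC97L-Oxa (SE, adjusted p = 0.112 and 0.228 by edgeR). CCND1, which encodes cyclin D1, had 0.07 ± 0.27 and -0.11 ± 0.23 (SE). Of the 29 tested genes of the cytoplasmic and nuclear β-catenin branch, 0 passed the adjusted threshold in either line by edgeR, with 7 and 3 at an unadjusted p under 0.05 (24.1% and 10.3%). Of the planar cell polarity and calcium branch, 0 of 19 in MHCC97L-Src and 0 of 20 in MHCC97L-Oxa passed it by edgeR, with 4 at an unadjusted p under 0.05 in each. The shares of all genes at that p were 29.5% and 22.4%, as above.

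Among the other extracellular genes, SERPINF1, a secreted serpin that can bind LRP6, had 0, 3 and 4 parental counts, against 41, 33 and 30 in MHCC97L-Src with 10, 9 and 4 for MHCC97L-Oxa. It rose in MHCC97L-Src with a fitted log2 fold change of 3.92 ± 0.76 (SE, adjusted p = 0.041 by edgeR), which rests on few MHCC97L counts, and was higher there than in MHCC97L-Oxa by 2.27 ± 0.41 (SE, adjusted p = 0.0124 by edgeR). TPBG, a membrane glycoprotein that inhibits canonical signaling at LRP6, had 1951, 2079 and 1628 parental counts, against 2315, 1821 and 2826 in MHCC97L-Src with 5054, 4861 and 4433 for MHCC97L-Oxa. It rose in MHCC97L-Oxa by 1.34 ± 0.19 on the log2 scale (SE, adjusted p = 0.0273 by edgeR), while after the GC correction the value was 1.79 with an adjusted p of 0.0874 by edgeR. At the weaker criterion, 3 of the 67 further genes were higher in MHCC97L-Src and 7 were lower, and 4 of the 66 were higher in MHCC97L-Oxa and 3 were lower (14.9% and 10.6% in either direction, against 24.6% and 16.2% of all genes). KREMEN2, a receptor for DKK1, met the weaker criterion in both lines, with log2 fold changes of 1.12 and 1.02 as counted (adjusted p = 0.154 and 0.218 by edgeR). After the GC correction the KREMEN2 values were 0.64 and 0.61 (adjusted p = 0.175 and 0.143 by edgeR). The small GTPase RAC2 had 1.27 in MHCC97L-Src and 0.82 after the correction (adjusted p = 0.082 and 0.00988 by edgeR). In MHCC97L-Oxa the corepressor TLE2 had 1.10 and the polarity receptor PTK7 had 1.23, with 0.81 and 1.10 after the correction (adjusted p = 0.00401 and 0.00517 by edgeR). The phospholipase gene PLCB2 had -1.87 in MHCC97L-Oxa and -1.97 after the correction (adjusted p = 0.0223 by edgeR). Lower in MHCC97L-Src were GSK3B, the kinase of the destruction complex, PYGO1, TBL1XR1, TNKS2, ROCK1 and ROCK2, at -2.39 (TNKS2) to -1.02 (GSK3B). After the correction these 6 lay between -1.003 (TNKS2) and 0.08 (PYGO1). TBL1XR1 and ROCK2 were also lower in MHCC97L-Oxa, at -1.99 and -1.80 as counted and -0.65 and -0.82 after the correction. LGR4, a receptor for R-spondins, had 1116, 70 and 211 counts in MHCC97L, with log2 fold changes of -2.04 ± 0.86 and -1.70 ± 0.83 in MHCC97L-Src and MHCC97L-Oxa (SE, adjusted p = 0.159 and 0.249 by edgeR) and -0.59 and -0.45 after the GC correction.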

How the data were processed

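Poly(A)-selected RNA was sequenced from MHCC97L and from its derivatives MHCC97L-Src and MHCC97L-Oxa, giving 3 libraries for each. The authors deposited raw counts of reads per gene and FPKM values (fragments scaled to the length of the transcript and the depth of the library), both for 20030 genes in 9 libraries. The submitters' processing notes name Trimmomatic 0.36, HISAT2 2.2.1.0 and GRCh38.p12, while the counting program, its annotation and its strand setting were not given in the sources used here. Libraries were grouped by the cell line and treatment of their labels.

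Counts were compared with edgeR 4.0.16 (R 4.3.3) by its quasi-likelihood test on the 6 libraries of each comparison, with filterByExpr (minimum count of 10), TMM normalization and Benjamini-Hochberg adjustment over all genes tested. The standard error was the absolute log2 fold change over the root of F. Levels were compared between genes in the deposited FPKM, and for WNT5A and WNT6 also in CPM. GC content and length were those of the longest GENCODE release 29 transcript, found for 19343 genes, 13518 by accession and 5825 by symbol, and were corrected with natural splines of 5 degrees of freedom as edgeR offsets. Alternatives were DESeq2 1.42.0, its size factors, no filter, a replicate block, a shared fit of all 9 libraries, the GC correction and leaving out each library. Python 3.11.15 and SciPy 1.17.1 were used for summaries, and the scripts were tested on simulated data.

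Each of the 53 genes was accounted for. Log2 fold changes were given for those meeting either criterion, for 5 genes that the study blotted (WNT6, FZD8, DKK1, AXIN2 and CTNNB1), and for tested feedback inhibitors and TCF/LEF factors. By immunoblot the study reported more FZD8, DKK1, AXIN2 and WNT6 protein. Protein is a different measure from the RNA described here, in which DKK1 was lower in both resistant lines. Genes outside the 53 came from the fixed lists and were named only where they met a criterion or defined a list. The members and lists were chosen with earlier results of these data known. Single values beyond that rule (the ends of a range, members that passed only after the GC correction, RYK and LRP6 in MHCC97L-Oxa) were chosen after values were seen. Promoter sequences were taken from RefSeq (GRCh38.p14), which gave 38 of the 53 genes a window.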

Additional observations from a re-analysis of the deposited data

Results flagged for a closer look

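The 2 resistant lines differed in 3 Wnt genes, by the direct test of MHCC97L-Src against MHCC97L-Oxa. The log2 fold change was -2.1047 for DKK1 (adjusted p = 0.0025 by edgeR), with 37, 20 and 42 counts in MHCC97L-Src against 179, 146 and 131 for MHCC97L-Oxa. It was -0.9546 for NKD2 (adjusted p = 0.0284 by edgeR), with 81, 99 and 94 counts against 180, 203 and 192. It was -1.045 for NOTUM (adjusted p = 0.031 by edgeR), with 79, 94 and 86 counts against 152, 226 and 201. All 3 were lower in 3 of 3 MHCC97L-Src libraries than in any MHCC97L-Oxa library. Groups of 3 libraries were not screened for single outlying values.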

How the results depend on the processing

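DKK1 kept its direction and an adjusted p under 0.05 in MHCC97L-Src and between the resistant lines in 13 of 13 alternatives, with log2 fold changes of -4.76 to -3.92 and -2.25 to -1.91. In MHCC97L-Oxa it did so in 9 of 13, with -2.64 to -1.97. At the adjusted threshold, the 1 Wnt gene in MHCC97L-Src became 10 with DESeq2, 3 without a filter, 5 with the replicate block, 9 with all 9 libraries in a shared fit and 8 with the GC correction. Over all genes, 256 calls there became 2114, 702, 988, 1956 and 1272 in the same order, out of 11943 to 15167 tested. The 2 Wnt genes in MHCC97L-Oxa became 4 with DESeq2, 1 with the replicate block (DKK1) and 8 with the GC correction, while 115 calls over all genes became 893, 92 and 1557. The 3 between the resistant lines became 5 with DESeq2, 1 with all 9 libraries and 5 with the GC correction, while 556 over all genes became 839, 86 and 1154. At the weaker criterion the 10 in MHCC97L-Oxa became 5 with the GC correction, with or without the replicate block. Over all genes, 558 higher and 1393 lower became 544 and 430 with the GC correction. The cause of these moves was not tested, except that a shared fit takes its spread from all 3 lines.

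Leaving out a library gave 1 to 10 adjusted calls of Wnt genes in MHCC97L-Src (3 without MHCC97L replicate 1, 10 without replicate 2), 0 to 11 in MHCC97L-Oxa and 1 to 8 between the resistant lines. Over all genes in MHCC97L-Src, 672 of 12171 were called without MHCC97L replicate 1 and 3419 of 12288 without replicate 2. In MHCC97L-Oxa there were 11 Wnt genes without MHCC97L replicate 1, 8 without replicate 2, and 0 without MHCC97L replicate 3 or whichever MHCC97L-Oxa library was dropped. Over all genes there were 2251 of 12168, 2705 of 12256, and 2 in each of the fits with 0 Wnt genes. Between the resistant lines there were 7 Wnt genes without MHCC97L-Src replicate 2, 8 without replicate 3, 2 without MHCC97L-Oxa replicate 1, and 1 without MHCC97L-Src replicate 1 or MHCC97L-Oxa replicates 2 or 3. Over all genes there were 1033, 1617, 243, 208, 167 and 231 in the same order. At the weaker criterion the ranges for Wnt genes were 11 to 15, 5 to 17 and 2 to 6, with 17 without MHCC97L replicate 2, 5 without MHCC97L-Oxa replicate 2 and 6 without MHCC97L-Oxa replicate 1. Shares of all genes at that criterion are not given here for these fits.

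The replicate numbers did not pair the libraries. Same-numbered libraries deviated together with mean correlations of -0.0876, 0.0318 and -0.115, against 0.0317, -0.0168 and 0.0577 for other numbers, and 1 of 3 libraries in each comparison correlated best with its own number. The block ended the NKD2 calls in MHCC97L-Oxa (adjusted p = 0.102 by edgeR) and between the resistant lines (0.0656).

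Several directions turned. RYK, at -1.14 in MHCC97L-Src and -1.09 in MHCC97L-Oxa, was 0.2201 and 0.0089 with the GC correction, and 0.221 and 0.0453 with the replicate block added. FZD7 in MHCC97L-Src was -0.0674 and -0.0665 under these, with -0.0042 to 0.225 when a library was left out. WNT5A between the resistant lines was 0.1529 and 0.1454, with -0.333 to 0.1773 when a library was left out. NOTUM in MHCC97L-Src was -0.40 with the GC correction, -0.39 with the replicate block added, -0.14 without MHCC97L replicate 1 and -0.03 without MHCC97L-Src replicate 2, in a range up to 0.30. RNF43 and ZNRF3 in MHCC97L-Oxa were 0.18 and 0.16 without MHCC97L replicate 2, and -0.23 at the lowest for RNF43 with a library left out. TCF7L2 in MHCC97L-Oxa was 0.0418 with DESeq2, 0.0416 with its size factors, 0.022 without a filter, 0.28 with the GC correction, 0.35 with the block added, 0.05 and 0.10 without MHCC97L replicates 1 and 2, and -0.075 to 0.10 over all libraries left out, with 0.01 without MHCC97L-Oxa replicate 3. WNT6 between the resistant lines was -0.0447 with the GC correction, -0.0493 with the block added and -0.12 without MHCC97L-Src replicate 2. CTNNB1 there was 0.0467 with the GC correction, and 0.02, 0.28 and 0.21 without MHCC97L-Src replicates 1 and 2 and MHCC97L-Oxa replicate 1, in a range down to -0.64. Of the other values, 683 kept their direction and side of the threshold, 70 passed it and 20 lost it. The log2 fold changes of the members named after the GC correction were added to these values after the data were seen.

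The GC correction moved the median of all genes to -0.05 from -0.16 for MHCC97L-Src, and to -0.08 from -0.19 for MHCC97L-Oxa. Low counts limited the precision of AXIN2, TCF7L1 and WNT5B at this depth.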

Other observations

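Between the resistant lines, further Wnt pathway genes from the fixed lists differed in edgeR's quasi-likelihood test with Benjamini-Hochberg adjustment. Of 66 tested, 2 were higher and 4 were lower in MHCC97L-Src, against 2.12% and 2.52% of all genes. JUN, an AP-1 transcription factor that is also a target of β-catenin, had 473, 463 and 516 counts in MHCC97L-Src against 1348, 1220 and 1281 for MHCC97L-Oxa, a log2 fold change of -1.30 ± 0.13 (SE, adjusted p = 0.000385 by edgeR). TPBG had a log2 fold change of -0.95 ± 0.13 (SE, adjusted p = 0.00256 by edgeR). PRKCA, a protein kinase C of the calcium branch, had 718, 600 and 813 counts against 1374, 1440 and 1110, a log2 fold change of -0.78 ± 0.14 (SE, adjusted p = 0.011 by edgeR).

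The corepressors TLE1 and TLE3, which bind TCF/LEF factors, differed in opposite directions. TLE1 had 748, 675 and 842 counts in MHCC97L-Src against 1152, 1215 and 1204 for MHCC97L-Oxa (log2 fold change -0.55 ± 0.12 SE, adjusted p = 0.0291 by edgeR). TLE3 had 5044, 4466 and 5156 against 3867, 3961 and 3792 (log2 fold change 0.44 ± 0.10 SE, adjusted p = 0.0284 by edgeR). After the GC correction the values were -0.67 for TLE1 and 0.38 for TLE3, with adjusted p of 0.00473 and 0.0259 by edgeR.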
